A study of Mus musculus with 6 samples.

Results

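Scn9a, Scn10a and Scn11a encode Nav1.7, Nav1.8 and Nav1.9, the pore-forming alpha subunits of the voltage-gated sodium channels that characterise pain-sensing neurons (nociceptors). The 3 genes were taken by NCBI gene identifier (20274, 20264 and 24046) from tables of 36528 genes, and all 3 passed the filter on low counts. RNA of lumbar dorsal root ganglia, the clusters of sensory nerve cell bodies beside the spinal cord, was sequenced from 6 female mice aged 12 to 18 weeks, each library holding the 6 pooled ganglia (levels L4, L5 and L6) of 1 mouse. All 6 mice carried loxP-flanked Scn9a on both alleles. Of these, 3 littermate controls were negative for pCAAG.Cre.ER, a transgene for a Cre recombinase that tamoxifen switches on, and 3 mice were positive for it and formed the knockout group. The series describes the knockout as global, so recombination was not confined to neurons by design. Neither the tamoxifen treatment nor the exons between the loxP sites are known from the labels, and each CreER-positive mouse is taken as knockout by its genotype label alone.

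Voltage-gated sodium channels open when the membrane depolarises and carry the inward current that starts and propagates action potentials. Nav1.7 responds to small, slow depolarisations and helps to bring a nociceptor to threshold, Nav1.8 carries much of the upstroke once an action potential has begun, and Nav1.9 passes a persistent current near the resting potential. Nav1.7 is blocked by tetrodotoxin, whereas Nav1.8 and Nav1.9 are resistant to it. People who lack functional Nav1.7 do not feel pain, which is why the channel is studied as an analgesic target.

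The 3 genes lie at separate loci. Scn9a (chromosome 2, 66480080 to 66635114 in GRCm38.p6, minus strand) has 27 exons in its longest coding transcript in GENCODE M21. Scn10a (chromosome 9, 119608456 to 119719322, minus strand, 28 exons) and Scn11a (chromosome 9, 119753763 to 119825456, minus strand, 27 exons) are neighbours of each other. The 250 bases before 1 RefSeq transcript start site of each gene are shown because Scn10a and Scn11a differed between the groups in the same direction. The windows are chr2:66634963-66635212, chr9:119719033-119719282 and chr9:119825457-119825706 in GRCm38.p6, written 5′ to 3′ on the minus strand. For Scn11a this start site is the end of the gene span given above, whereas for Scn9a it lies 152 bases and for Scn10a 290 bases inside the span, so that the Scn10a window lies wholly within the annotated gene. Capitals mark TTTAAAATCAC, the longest run of letters that the Scn10a and Scn11a windows share.
Scn9a: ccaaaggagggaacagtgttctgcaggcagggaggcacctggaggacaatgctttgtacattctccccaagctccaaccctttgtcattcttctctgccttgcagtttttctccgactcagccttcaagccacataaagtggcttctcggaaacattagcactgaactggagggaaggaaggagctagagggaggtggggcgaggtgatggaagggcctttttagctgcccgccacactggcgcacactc
Scn10a: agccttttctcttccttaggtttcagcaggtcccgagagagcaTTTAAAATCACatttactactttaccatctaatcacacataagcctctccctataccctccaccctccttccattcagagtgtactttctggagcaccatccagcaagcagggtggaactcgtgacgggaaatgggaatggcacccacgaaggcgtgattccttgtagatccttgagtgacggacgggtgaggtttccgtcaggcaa
Scn11a: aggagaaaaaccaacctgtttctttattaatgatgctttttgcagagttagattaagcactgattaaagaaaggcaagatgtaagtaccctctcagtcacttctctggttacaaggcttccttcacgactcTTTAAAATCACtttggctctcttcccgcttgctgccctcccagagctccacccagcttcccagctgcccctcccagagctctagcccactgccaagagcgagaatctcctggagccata
The shared 11 letters begin 207 bases before this start site of Scn10a and 119 bases before that of Scn11a, on the same strand in both. They occur on either strand in 6 of 32851 RefSeq promoter windows of this length (0.0183%) and not in the Scn9a window. The other pairs share runs too, on opposite strands. Scn9a and Scn11a share the 10 letters GTTTTTCTCC (in 49 windows, 0.149%), and Scn9a and Scn10a the 8 letters AAGGAGGG (961 windows, 2.93%). All of these runs were chosen by comparing the windows with each other, and no activity was measured for them. The runt-factor words TGTGGT (in 4614 of the 32851 windows) and TGCGGT (5.10%), the homeodomain word TAATTA (4.84%) and the TATA word TATAAA (12.4%) occur on neither strand of the 3 windows. The windows hold 5, 8 and 3 CG dinucleotides in Scn9a, Scn10a and Scn11a, against a median of 6 over all windows.

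Total counts were 40237131 to 63332040 per library. No pair of libraries within a group looked like 1 library deposited again. The chi-square of their counts per degree of freedom was 5.64 to 8.4 between controls and 32.8 to 40.7 between CreER-positive libraries. All 20 pan-neuronal markers were measured, with summed levels of 14620 to 16070 CPM (reads of a gene per 1e6 reads of the library, for lists scaled by the total count) in controls and 14400 to 16740 CPM in CreER-positive mice. Control replicate 2 stood apart in muscle transcripts (8 markers, summed 72.9 CPM, against 7.41 to 10.9 CPM in the other libraries). CreER-positive replicate 3 stood apart in macrophage markers (8 genes, 187.5 CPM, against at most 125.5 CPM elsewhere) and red blood cell markers (5 genes, 84.0 CPM, against at most 43.4 CPM). It was also highest in fibroblast (5 genes, 1448 against at most 1094 CPM), endothelial (5 genes, 123.0 against at most 89.1 CPM) and satellite glia markers (8 genes, 3481 against at most 3039 CPM), and it had the lowest pan-neuronal sum. CreER-positive replicate 2 was highest in markers of central nervous system tissue (7 genes, 143.5 CPM, against at most 121.5 CPM elsewhere). Most of this sum came from 1 gene, Slc17a7, in every library. Whether its reads came from ganglion cells or from central nervous system tissue was not tested. The mean log2 level of the 5 genes of this list that were tested was 0.63 above the control average in CreER-positive replicate 2, against at most 0.17 elsewhere. Of all marker lists, only this list had genes at 0 in a library, the oligodendrocyte genes Olig2 and Opalin. Results for the channels are therefore also given without control replicate 2 and CreER-positive replicate 3, and with each library left out in turn.

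Scn9a, the gene carrying the loxP sites, is described first because it bears on the labels. The libraries held 25811, 33859 and 35220 Scn9a reads in controls and 37172, 34691 and 30529 in CreER-positive mice. After scaling with TMM factors (trimmed means that correct for library composition) these were 635, 611 and 557 CPM in controls and 620, 565 and 574 CPM in CreER-positive mice. The 2 groups overlapped: the lowest library was a control and the second highest was CreER-positive. The log2 fold change was -0.04 ± 0.08 (SE), a change of -2.50% with a 95% interval from -13.5% to 9.94%. By edgeR's quasi-likelihood test the adjusted p was 0.918, and the exact two-sided permutation p was 0.8, where 3 libraries against 3 allow no value below 0.1.

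A second gene is counted across most of the Scn9a transcript. Gm13629, a long noncoding RNA gene on the opposite strand (chromosome 2, 66440880 to 66547472), overlaps 43.5% of the Scn9a span. Its span contains 18 of the 27 Scn9a exons and 83.2% of the exonic bases of the transcript. The deposited width equals the full span for Gm13629 (106593 bases) and 100.4% of the span for Scn9a, although the annotated exons of Gm13629 total 1148 bases, of which 180 lie in Scn9a exons. The count of Gm13629 was 93.2% to 95.6% of the Scn9a count in every library. With no strand setting given in the sources used here, reads of this stretch cannot be assigned to 1 of the 2 genes. Gm13629 had 570 ± 39.6 CPM in controls and 549 ± 25.9 CPM in CreER-positive mice (SD, n = 3), a log2 fold change of -0.06 with an edgeR adjusted p of 0.859. Neither value checks the deletion, since reads outside the deleted exons are counted and those exons are not known here.

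Scn10a had the highest CPM of the 3 genes and the largest difference between groups. It had 1098, 1109 and 1035 CPM in controls and 893, 888 and 825 CPM in CreER-positive mice. Every CreER-positive library lay below every control, and the gap between the lowest control and the highest CreER-positive library was wider than the range within either group. Means were 1081 ± 39.7 CPM in controls and 869 ± 37.8 CPM in CreER-positive mice (SD, n = 3), a change of -19.6%. The log2 fold change was -0.31 ± 0.08 (SE), with a 95% interval from -0.49 to -0.14.

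Scn11a had 681, 700 and 659 CPM in controls and 594, 584 and 559 CPM in CreER-positive mice. As for Scn10a, the groups did not overlap. The means were 680 ± 20.7 and 579 ± 18.2 CPM (SD, n = 3), a change of -14.8%. The log2 fold change was -0.23 ± 0.07 (SE), with a 95% interval from -0.38 to -0.08. At its 3′ end Scn11a overlaps the noncoding RNA gene Gm33701 by 689 bases (0.961% of the span of Scn11a), whose count was 14.4% to 16.5% of the Scn11a count. Gm33701 had -0.19 (edgeR adjusted p 0.188), and reads of the overlap cannot be assigned to 1 of the 2.

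**Figure D1:**
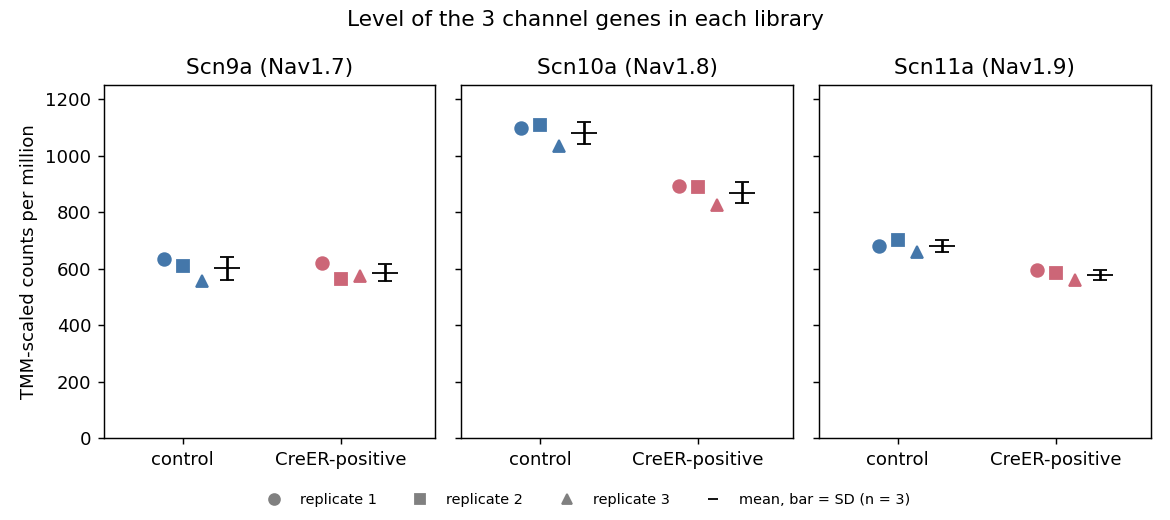
Points give the TMM-scaled CPM (vertical axis, from 0) of Scn9a, Scn10a and Scn11a in each of 3 control and 3 CreER-positive libraries, with the mean and SD beside them. The groups overlap for Scn9a, while for Scn10a (825 to 893 against 1035 to 1109 CPM) and Scn11a (559 to 594 against 659 to 700 CPM) every CreER-positive library lies below every control.

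Neither Scn10a nor Scn11a passed the test across all genes by edgeR. Adjusted over 22043 genes, the p was 0.156 for Scn10a (unadjusted 0.00286) and 0.234 for Scn11a (0.00714), so 0 of the 3 channel genes were called, against 0.726% of all genes tested. At an unadjusted p under 0.05 there were 2 of 3, against 10.6% of all genes. DESeq2, run on the same counts, called 2 of the 3, against 1.93% of all genes, with adjusted p values of 0.000151 for Scn10a and 0.00970 for Scn11a and 0.989 for Scn9a. The DESeq2 estimates were nearly the same (-0.31 and -0.23) with smaller standard errors (0.06 for both). CPM that did not overlap between the groups with CreER-positive mice lower were found for 2 of 3 channel genes, against 9.31% of all genes, and the exact two-sided permutation p was 0.1 for each, the smallest possible. The 3 genes were chosen with earlier results of these data known, so their shares are not a test against those of all genes. The read counts of the 3 genes carry a counting error of 0.391% to 0.622% per library, well under the coefficient of variation between mice (3.05% to 6.64%).

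The estimates of Scn10a and Scn11a stayed below 0 when libraries were left out, while that of Scn9a was 0.0049 without control replicate 1. Without CreER-positive replicate 3, Scn10a passed by edgeR (-0.28, adjusted p 0.0308, where 2.53% of all genes were called), and Scn11a had -0.21 (0.0588). Without both that library and control replicate 2, Scn10a had -0.26 (0.142) and Scn11a -0.18 (0.216), and neither passed (0.487% of all genes did). With 1 surrogate variable in the model, Scn10a (adjusted p 0.0112) and Scn11a (0.0235) passed, where 3.34% of all genes were called. Over all 18 alternatives the edgeR, DESeq2 or limma-voom estimate ranged from -0.39 to -0.26 for Scn10a and from -0.30 to -0.18 for Scn11a, with adjusted p values from 0.000151 to 0.591 and from 0.00970 to 0.700.

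**Figure D2:**
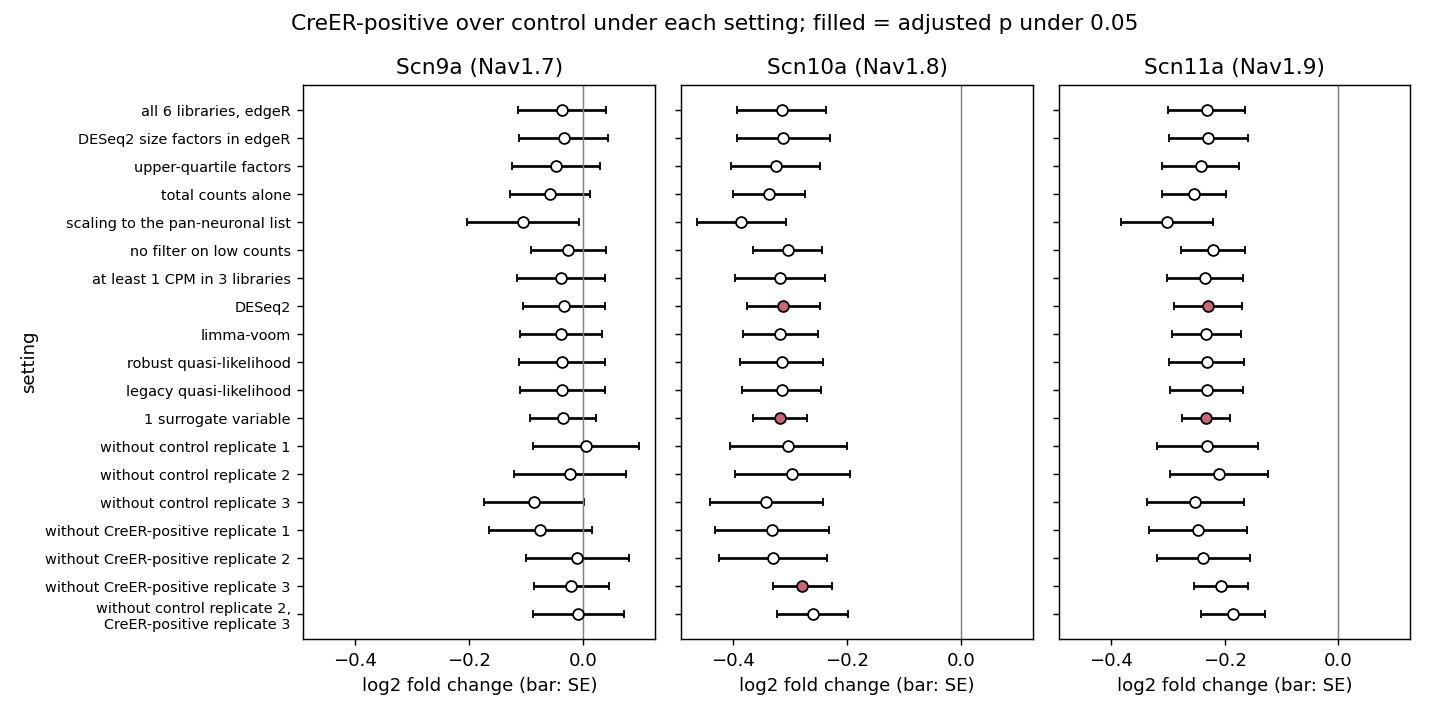
Each point is the log2 fold change of CreER-positive over control (horizontal axis, bar = SE) of 1 channel gene under 1 processing setting (vertical axis), filled where the adjusted p was under 0.05. All points of Scn10a and Scn11a lie below 0, filled in 3 and 2 of the 18 alternatives respectively, while those of Scn9a lie around 0 (-0.11 to 0.0049).

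The ratio of 2 channels within a library does not depend on how libraries are scaled. There were 1.73, 1.81 and 1.86 Scn10a reads for each Scn9a read in controls and 1.44, 1.57 and 1.44 in CreER-positive mice. The difference was -0.28 on the log2 scale (-17.6%), and the groups did not overlap. The ratio of Scn11a to Scn9a was 1.07, 1.15 and 1.18 in controls and 0.959, 1.03 and 0.974 in CreER-positive mice, a difference of -0.20 (-12.7%), again without overlap. Ratios to Scn9a that were lower without overlap were found for 4.95% of all genes tested. Reads shared with Gm13629 enter the denominator in all 6 libraries.

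Scn10a and Scn11a also differed from each other. The ratio of their CPM was 1.57 to 1.61 in controls and 1.48 to 1.52 in CreER-positive mice. On the deposited RPKM scale, which divides by gene width and so shifts all libraries alike, the ratio of Scn10a to Scn11a was 1.04, 1.02 and 1.02 in controls and 0.973, 0.983 and 0.955 in CreER-positive mice. This is a difference of -0.08 on the log2 scale (-5.63%), without overlap and with an SD of 0.02 within each group. Of all genes, 1.52% had a lower ratio to Scn11a without overlap. The exact two-sided permutation p of each of the 3 ratios was 0.1, the smallest possible, and 0.1 for all after Benjamini-Hochberg adjustment over the 3.

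**Figure D3:**
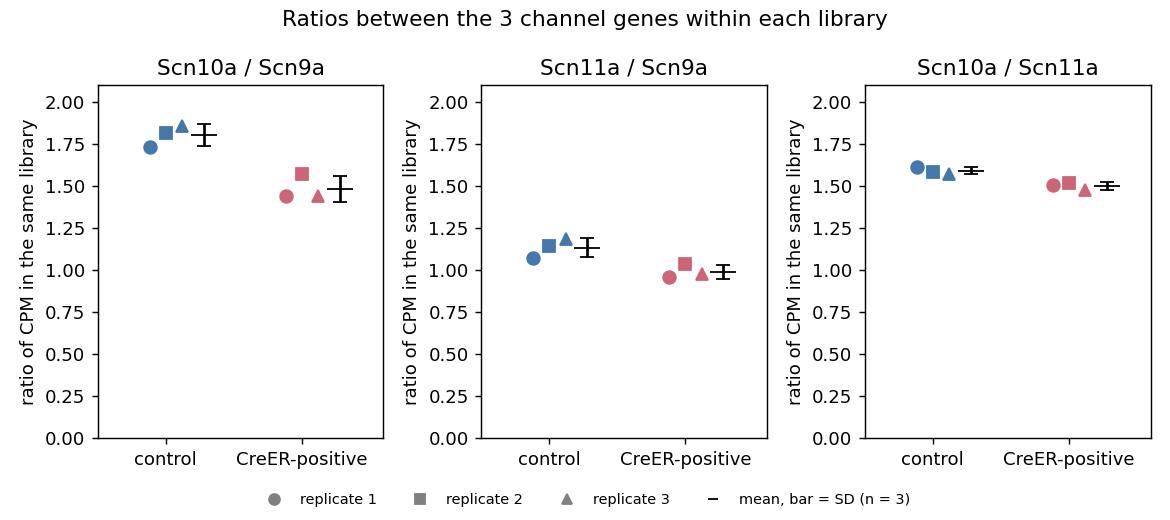
Points give the ratio of the CPM of 2 channel genes in the same library (vertical axis, from 0) for 3 control and 3 CreER-positive libraries, with mean and SD. All 3 ratios are lower in every CreER-positive library than in any control, and the ratio of Scn10a to Scn11a has the narrowest groups (1.57 to 1.61 against 1.48 to 1.52).

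Levels can be compared between genes only per length. On the deposited RPKM scale, where the width is the full gene span, Scn10a (9.98 ± 0.433) and Scn11a (9.71 ± 0.361) were at similar levels in controls and Scn9a was lower (3.96 ± 0.285; SD, n = 3). The control ranges of Scn10a (9.49 to 10.3) and Scn11a (9.33 to 10.1) overlapped. In CreER-positive mice the order of the first 2 was reversed, with 7.91 ± 0.181 RPKM for Scn10a and 8.15 ± 0.0826 for Scn11a, and their ranges (7.70 to 8.03 and 8.06 to 8.23) did not overlap. Divided instead by the length of the longest coding transcript (9840 bases for Scn9a, 6416 for Scn10a and 5899 for Scn11a), the control means were 61.1, 168 and 115 CPM per kilobase. On that scale Scn10a was above Scn11a and Scn11a above Scn9a in all 6 libraries. The 3 genes held 67.0% to 67.1% of the summed RPKM of the 9 Scn alpha subunit genes reported here in controls and 63.3% to 64.2% in CreER-positive mice.

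Of the 7 other alpha-type genes reported here, which include the leak channel gene Nalcn, 0 were called by edgeR or DESeq2 and 0 had an unadjusted p under 0.05. Over all genes, edgeR called 0.726% and DESeq2 1.93%, and 10.6% had an unadjusted p under 0.05. Scn1a (Nav1.1) had a log2 fold change of -0.11, Scn2a (Nav1.2) -0.07, Scn3a (Nav1.3) -0.09, Scn4a (Nav1.4, the skeletal muscle channel) 0.05, Scn8a (Nav1.6, of nodes of Ranvier) 0.04, Scn7a (Nax, which is not opened by voltage) -0.02 and Nalcn -0.07. The median over the 7 genes was -0.07, against 0.00 for all genes tested. Scn7a (9.44 RPKM in controls) was at a level like that of Scn10a, and Scn1a (0.801) and Scn8a (0.848) followed. The intervals of these genes reached from -0.30 (Scn1a) to 0.31 (Scn4a), so changes of the size seen in Scn11a lay within several of them.

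None of the 3 beta subunit genes reported here, whose products attach to the alpha subunits and set their gating and surface level, was called by edgeR or DESeq2, and 0 had an unadjusted p under 0.05. Scn2b had 0.22, Scn4b 0.07 and Scn3b -0.09, a median of 0.07. Of 29 genes of channel partners (anchors, trafficking proteins, modulators), 0 were called by edgeR or DESeq2, 4 had an unadjusted p under 0.05, a share near the 10.6% of all genes, and the median was 0.03. Those 4 were Gpd1l (-0.23, edgeR adjusted p 0.195), Fgf11 (0.27, 0.309), a fibroblast growth factor homologous factor, Dpysl2 (0.17, 0.401), which encodes the Nav1.7-binding protein CRMP2, and Cntnap1 (0.24, 0.444), which encodes the paranodal protein Caspr. S100a10, whose product p11 carries Nav1.8 to the membrane, had -0.01.

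**Figure D4:**
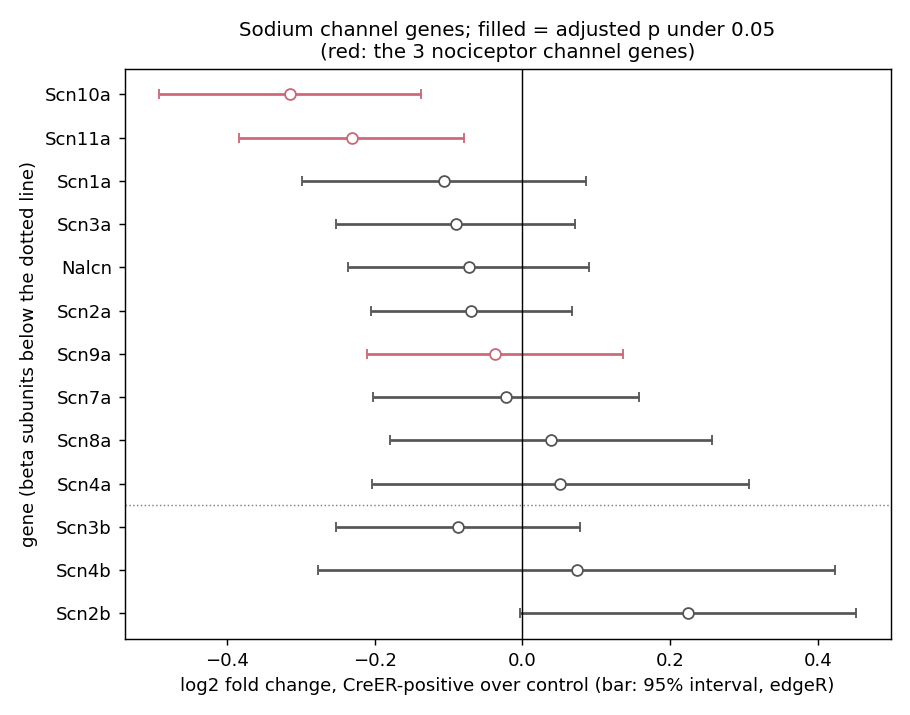
Log2 fold changes of CreER-positive over control with 95% intervals (horizontal axis) are drawn for 10 alpha-type and 3 beta subunit genes (vertical axis), filled where the edgeR adjusted p was under 0.05. No point is filled, and the intervals of Scn10a and Scn11a lie wholly below 0.

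Within 1000 kb of Scn9a 11 genes were tested, of which 0 were called by edgeR or DESeq2 and 2 had an unadjusted p under 0.05. Of all genes tested, edgeR called 0.726% and DESeq2 1.93%, and 10.6% had an unadjusted p under 0.05. The smallest p values there were those of Gm35265 (0.36, edgeR adjusted p 0.273), Galnt3 (0.21, 0.345), a glycosylating enzyme gene, and Gm13630 (-0.27, 0.634). On chromosome 9, Wdr48, a gene near Scn11a whose product is a partner of deubiquitinating enzymes, had -0.21 (edgeR adjusted p 0.107). It passed by DESeq2 (adjusted p 0.0200), which called 1.93% of all genes. Wdr48 was picked once its values were known, and counts for the genes around Scn10a and Scn11a are not reported here.

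The channels were then set against neuronal transcripts of the same library. In bulk tissue, fewer cells of a type and less RNA per cell cannot be told apart. Relative to the mean log2 level of 20 pan-neuronal genes, Scn10a differed by -0.36 on the log2 scale (-22.2%) and Scn11a by -0.28 (-17.6%), both lower without overlap of the groups (exact two-sided permutation p = 0.1, the smallest possible), as were 8.75% of all genes tested. Scn9a differed by -0.08, with overlap (exact p = 0.5). The 20 reference genes had a median log2 fold change of 0.09, against 0.00 for all genes tested. Their mean log2 level, with 0.1 CPM added, lay at 0.11, 0.13 and -0.10 from the control average in CreER-positive replicates 1, 2 and 3. The ratios to this list carry these shifts too. Against 12 markers of peptidergic nociceptors, which release substance P and CGRP, all 3 were lower without overlap, with -0.12 for Scn9a, -0.40 for Scn10a and -0.32 for Scn11a (exact p = 0.1 each). So were 17.8% of all genes against this list, whose own summed level was higher in CreER-positive mice.

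Against markers of non-peptidergic nociceptors the values were different. Relative to 22 such markers, Scn11a differed by -0.02, with overlapping groups (exact two-sided permutation p = 0.6), and Scn10a by -0.10, lower without overlap (p = 0.1, the smallest possible in an exact test), as were 1.76% of all genes. Scn9a was higher by 0.18, without overlap (exact p = 0.1), as were 49.2% of all genes. The summed level of these 22 genes was 3569 to 3722 CPM in controls and 2991 to 3203 CPM in CreER-positive mice, without overlap. Of the 22, 17 had an estimate below 0, and 3 fell and 0 rose by edgeR, which called 0.726% of all genes. DESeq2 called 4 lower and 1 higher, against 1.93% of all genes in either direction. Among the 3 that fell were Mrgprd (-1.22, edgeR adjusted p 0.000249), a receptor gene of a subset of these cells, and Prkcq (-0.68, 0.000653), protein kinase C theta. The median was -0.13. The mean log2 level of the list, with 0.1 CPM added, lay further down, at -0.16, -0.22 and -0.26 from the control average in the CreER-positive libraries. Strongly lowered genes such as Mrgprd weigh on this mean, so the ratios to it do not stand for each marker of the list. The gene called higher by DESeq2 was Mrgpra3 (0.29, DESeq2 adjusted p 0.0248, edgeR adjusted p 0.111), an itch receptor gene. Markers of C-fibre low-threshold mechanoreceptors, a class of touch neurons, had summed levels of 305 to 316 CPM in controls and 208 to 237 CPM in CreER-positive mice (6 genes, median -0.52). Of these 6, 4 fell by edgeR, against 0.726% of all genes, and Cdh9, a cadherin gene, had 0.35 (edgeR adjusted p 0.263). Peptidergic markers were at 2407 to 2725 CPM in controls and 2749 to 2954 CPM in CreER-positive mice (12 genes, median 0.09). Of these 12, 0 were called by edgeR, 1 was called by DESeq2 and 5 had an unadjusted p under 0.05. Over all genes tested these shares were 0.726%, 1.93% and 10.6%. No marker of these 3 lists was at 0 in a library. These lists were chosen with earlier results of these data known, so their shares are not a test against those of all genes. The part of these cell types in the differences of Scn10a and Scn11a was not tested.

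**Figure D5:**
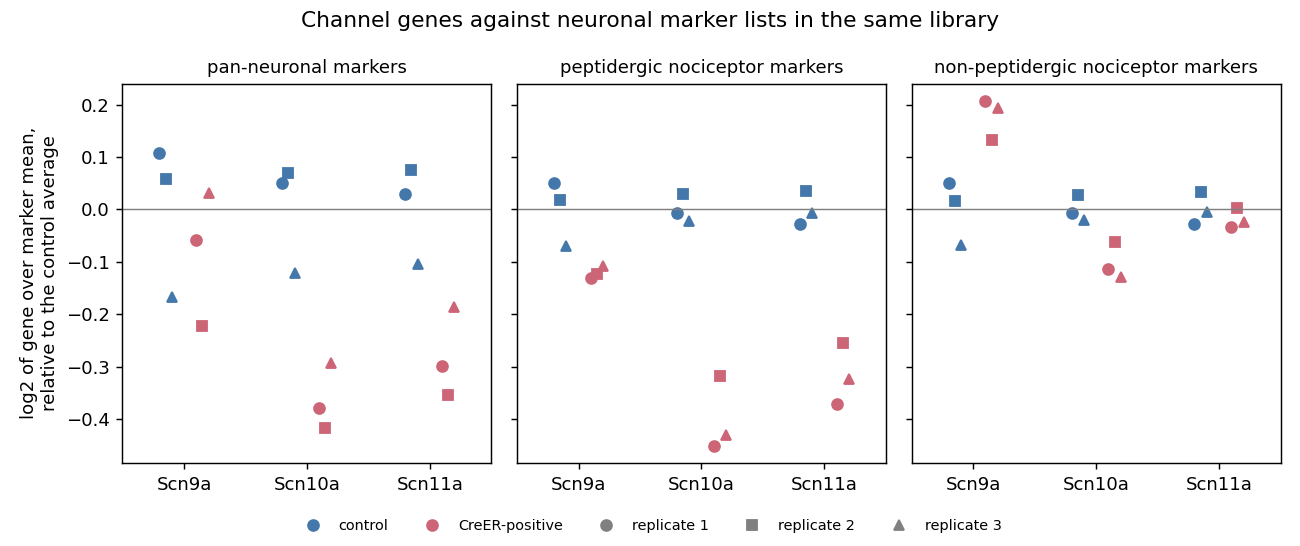
Each point is the log2 ratio of a channel gene to the mean of a marker list in 1 library, relative to the control average (vertical axis), for pan-neuronal, peptidergic and non-peptidergic markers. Scn10a and Scn11a lie below the controls against the first 2 lists (-0.28 to -0.40), and against non-peptidergic markers Scn11a overlaps the controls (-0.02) and Scn9a lies above them (0.18).

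The genes most like each channel over the 6 libraries were found by the SD of the log2 ratio to the channel, among 11503 other genes whose mean level was 10 CPM or more. For Scn9a these were Gm13629 (SD 0.014), the transcription factor gene Yy1 (0.019), Rasa1, a Ras GTPase-activating protein gene (0.020), Rabgap1l (0.022) and the diacylglycerol kinase gene Dgki (0.023), against a median of 0.12 over all genes. For Scn10a they were Rubcnl, an autophagy gene (0.027), Pitpnm3 (0.031), Phf24 (0.035), a gene without a symbol in the annotation (0.038) and Gramd4 (0.039), against a median of 0.20. For Scn11a they were the ABC transporter gene Abca6 (0.0098), Plpbp (0.025), Ranbp17 (0.025), the noncoding RNA Miat (0.028) and Ccdc93 (0.029), against a median of 0.16. Scn11a ranked 17 among the genes most like Scn10a (SD 0.049), and Scn9a ranked 2532. With 6 libraries such small SDs describe these samples only.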

How the data were processed

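Ganglion RNA of 6 mice was measured, 3 per group, grouped by the genotype label. The submitters' processing notes name GSNAP and the builds GRCm38 and mm10. How reads were counted, with which strand setting and annotation, is not given in the sources used here, nor is whether intronic reads were counted. Per the file headers, each deposited table gives for every gene the raw count, its width and the RPKM computed by the authors; RPKM was used only for levels and ratios. In 77.7% of matched genes this width is within 5% of the RefSeq span. Identifiers were matched to RefSeq symbols of GRCm38.p6 (31049 of 36528), and promoter sequences are RefSeq's of that build.

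Counts were filtered with filterByExpr (22043 genes), scaled with TMM factors and tested with edgeR 4.0.16 (quasi-likelihood, Benjamini-Hochberg adjustment, threshold 0.05) in R 4.3.3. The SE is the log2 fold change over the square root of F. The step was also run on simulated data with the same dispersion in both groups, and the outcome is not reported here. Ratios were tested by exact permutation (scipy 1.17.1). Alternatives were DESeq2 1.42.0, limma-voom 3.58.1, 1 surrogate variable (sva 3.50.0), other quasi-likelihood settings, scalings and filters, and leaving out libraries. Genes were named by rule: the 3 channels, alpha and beta subunit genes, and the 4 partners and 3 neighbours of Scn9a with the smallest p. The rule also covered at most 2 marker genes and the 5 genes most like each channel. S100a10, Wdr48, Mrgpra3, Cdh9 and Slc17a7 are exceptions, picked once their values were known. Some genes of the channel lists and the counts of genes around Scn10a and Scn11a are not reported here. Members and lists were chosen with earlier results of these data known.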

Additional observations from a re-analysis of the deposited data

How the results depend on the processing

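Scn10a and Scn11a had negative estimates under all 18 alternatives. Their side of the threshold changed with DESeq2 (-0.31 and -0.23, both passing), with 1 surrogate variable (-0.32 and -0.23, both passing) and, for Scn10a, without CreER-positive replicate 3. Leaving out 1 library gave -0.34 to -0.28 for Scn10a, -0.25 to -0.21 for Scn11a and -0.086 to 0.0049 for Scn9a, which was above 0 without control replicate 1 (0.0049). The cause of these changes was not tested. Over the same fits the ratio of Scn10a to Scn9a ranged from -0.32 to -0.26 on the log2 scale, that of Scn11a to Scn9a from -0.235 to -0.16 and that of Scn10a to Scn11a from -0.09 to -0.07. Against pan-neuronal genes the ranges were -0.17 to -0.01, -0.42 to -0.33 and -0.33 to -0.24 for Scn9a, Scn10a and Scn11a. With non-peptidergic markers as the reference these became 0.18, -0.10 and -0.018. Of all genes tested 160 were called (36 higher, 124 lower), against 97 with libraries scaled to pan-neuronal transcripts (9 higher, 88 lower), 425 with DESeq2, 737 with 1 surrogate variable, and 60 to 568 without 1 library (568 without CreER-positive replicate 3, and 71, 60 and 73 without control replicates 1, 2 and 3). No paired analysis was possible because the labels give the mice no replicate number or litter, and the numbers used here only name the libraries. Depth did not limit the 3 genes, which had at least 25811 reads in each library, and the 3 mice per group limit the precision.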

Other observations

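Among 195 genes averaging 500 CPM or more, a level chosen to include all 3 channels, Scn10a had the 7th lowest and Scn11a the 9th lowest log2 fold change, and Scn9a was 62nd. Of these 195 genes, 1 was called by edgeR, against 0.726% of all genes. Mobp, a myelin gene of oligodendrocytes in the neighbourhood of Scn11a, was not called (edgeR adjusted p 0.273) and had 12.1 CPM in CreER-positive replicate 2 and 0.640 to 2.77 CPM in the other 5 libraries. Cx3cr1, a macrophage gene of the same neighbourhood, had its highest level in CreER-positive replicate 3 (6.13 CPM, against at most 4.01 CPM elsewhere). Both genes were chosen after their values were seen.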
